A study of Homo sapiens with 45 samples.

Results

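Cohesin is the ring-shaped complex that holds sister chromatids together and folds chromosomes into loops. Its genes were read here in 7 Ewing sarcoma and 6 osteosarcoma cell lines and in A673 cells carrying an inducible hairpin. The 9 genes were chosen by symbol: the core subunits SMC1A, SMC3 and RAD21, the alternative docking subunits STAG1 and STAG2, the loader NIPBL, and the regulators WAPL, PDS5A and PDS5B. They are 9 of the 41582 genes to which the transcripts of the deposited tables could be joined, and all 9 passed the filter on low counts in every comparison.

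SMC1A and SMC3 form a hinged pair of arms whose heads are closed by RAD21, and a STAG subunit docks on RAD21. STAG1 and STAG2 are paralogues, and a single complex holds one or the other. NIPBL loads the ring on chromatin and stimulates loop extrusion, whereas WAPL, with PDS5A or PDS5B, takes it off again. STAG2 is known as a recurrent target of inactivating mutations in Ewing sarcoma. Ewing sarcoma is driven by fusions such as EWS::FLI1, a chimeric transcription factor with an ETS DNA-binding domain, and osteosarcoma is a bone tumour without such a fusion. The labels do not give the STAG2 genotype of any line.

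The study measured poly(A) RNA in 45 libraries. The Ewing lines were SKES1, MHHES1, TC71, RDES, EW24, EW3 and A673. The osteosarcoma lines were U2OS, SAOS2, MG63, G292 (listed as G-292 clone A141B1), KHOS and HOS-MNNG, the last 2 of which both derive from the HOS line. Each line had 3 libraries and no stated treatment. A further 6 libraries came from A673 cells with the hairpin sh908, directed at KCNN1, a calcium-activated potassium channel gene: 3 without and 3 with doxycycline, which switches the hairpin on. No control hairpin group was used here, and the labels give neither the dose nor the time of doxycycline, nor whether the hairpin cells were a clone or a pool. Nothing in the labels says that the 3 libraries of a line came from separate cultures, so their spread may be technical.

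Library totals ran from 15974173 to 51413254 estimated counts, and the estimated counts behind a single value of STAG2 ran from 436 to 18046. Of 7 Ewing sarcoma markers 5 were called higher in Ewing than in osteosarcoma lines, and the summed level of the 7 was 1733 to 3976 TPM in the Ewing lines against 270 to 1373 TPM in the osteosarcoma lines (TPM, a transcript level per length scaled to the same total in each library). Of 7 osteoblast lineage markers 3 were called lower. CD99 and CCND1 of the Ewing list, and COL1A2, SPARC, ALPL and BGLAP of the osteoblast list, were not called. Of all 22000 genes tested 14.4% were called in either direction. The 6 markers of blood, epithelium, endothelium, liver and muscle summed to at most 2.82 TPM in any Ewing line and 28.8 TPM in any osteosarcoma line. Of the 4 that passed the filter on low counts, PECAM1 was called lower in Ewing lines (log2 fold change -2.63). EPCAM (-3.90), DES and PTPRC were not called. Some libraries stood apart from the others of their line. In TC71 replicate 3 all 9 cohesin genes were below the mean of the line's other libraries, and genes with an effective length of 5000 nt or more had a median deviation of -0.80 on the log2 scale. All 9 were also below that mean in U2OS replicate 3 and SKES1 replicate 2, with long-gene deviations of -0.38 and -0.26 and median deviations of the 9 genes of -0.38 and -0.40. The same held, with long-gene deviations of -0.14 to -0.09, in A673 replicate 2, MG63 replicate 3 and KHOS replicate 3. In EW24 replicate 3, which held the lowest STAG2 of that line, 7 of the 9 were below that mean, with a long-gene deviation of -0.17 and a median of the 9 genes of -0.36. In uninduced sh908 replicate 3 the long genes deviated by 0.68 and in induced replicate 3 by 0.64, and in each 8 of the 9 cohesin genes were above the mean of the group's other libraries. Their part in the results below was not tested beyond the values given without them.

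STAG1 lies on chromosome 3 (136336236 to 136752378), STAG2 on chromosome X (123960560 to 124102656) and PDS5B on chromosome 13 (32586452 to 32778019), in GRCh38.p14. The 250 bases before the first RefSeq start of each are shown because these are the pair of paralogues whose levels diverged most between lines and the one gene called between the tumour types. GGAA, the core of the sequence that ETS factors bind, and its complement TTCC are in capitals, and each sequence runs in the direction of transcription.
STAG1, chr3:136752379-136752628, minus strand: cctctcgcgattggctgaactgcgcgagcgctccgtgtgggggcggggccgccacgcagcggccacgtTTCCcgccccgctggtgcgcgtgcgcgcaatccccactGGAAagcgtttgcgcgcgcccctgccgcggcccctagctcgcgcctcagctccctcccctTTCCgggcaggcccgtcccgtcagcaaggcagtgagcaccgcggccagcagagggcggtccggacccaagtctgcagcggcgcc
STAG2, chrX:123960310-123960559, plus strand: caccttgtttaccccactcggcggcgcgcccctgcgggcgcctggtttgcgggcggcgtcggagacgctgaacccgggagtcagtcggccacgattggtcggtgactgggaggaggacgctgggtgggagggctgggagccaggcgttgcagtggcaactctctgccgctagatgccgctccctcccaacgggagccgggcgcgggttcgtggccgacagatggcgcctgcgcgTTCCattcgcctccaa
PDS5B, chr13:32586202-32586451, plus strand: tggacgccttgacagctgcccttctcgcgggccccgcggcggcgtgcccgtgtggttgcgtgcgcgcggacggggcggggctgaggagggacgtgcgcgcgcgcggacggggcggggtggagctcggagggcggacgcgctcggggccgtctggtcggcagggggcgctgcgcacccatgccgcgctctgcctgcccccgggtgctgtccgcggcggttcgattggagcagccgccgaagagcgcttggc
The STAG1 window held 3 matches on both strands together, the STAG2 window 1 and the PDS5B window 0. Later STAG2 starts had windows with 6 and 5 matches. Of 35116 windows of this length 92.7% held at least 1 match, with a median of 3. A match describes these letters only, and no binding was measured.

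STAG2 varied more between the Ewing lines than any other of the 9 genes. Its level was lowest in SKES1, with 6.32, 4.79 and 7.23 TPM in the 3 libraries, and next lowest in MHHES1, with 10.3, 9.998 and 12.1 TPM. It was highest in EW24, with 113, 121 and 79.1 TPM. The libraries of SKES1 and MHHES1 lay below every library of the other 11 lines and did not overlap each other. SKES1 replicate 2, in which all 9 cohesin genes were low, held the lowest of these values, and the line was below all others in its other libraries too. These levels correspond to 6.12 ± 1.23 TPM (SD, n = 3 throughout for single lines) in SKES1, 10.8 ± 1.15 in MHHES1 and 104 ± 22.1 in EW24.

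The remaining Ewing lines lay between these. A673 had 73.3 ± 6.52 TPM and RDES had 42.7 ± 4.69. EW3 had 40.3, 23.5 and 21.7 TPM, so that its first library overlapped those of RDES. TC71 had 74.7 and 79.3 TPM in replicates 1 and 2 and 19.8 TPM in replicate 3, the library that stood apart, giving a mean of 57.9 with it and 77.0 without it. The osteosarcoma lines covered a narrower range, from 26.3 ± 4.93 TPM in U2OS through 39.9 ± 1.10 in KHOS, 41.3 ± 0.98 in G292, 49.5 ± 1.96 in SAOS2 and 63.9 ± 8.88 in MG63 to 70.6 ± 2.67 in HOS-MNNG. In the order of all 13 line means, 2 of the 12 neighbouring pairs had library ranges that did not overlap, U2OS above MHHES1 and MHHES1 above SKES1.

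The highest Ewing line mean of STAG2 was 17.1-fold above the lowest, against 2.68-fold among osteosarcoma lines. The SD of STAG2 between the Ewing lines, on the log2 scale, was 1.42, at percentile 93.8 of 11687 genes, and the SD among osteosarcoma lines was 0.50, at percentile 38.6. Set against the median of the other 6 Ewing lines, STAG2 in SKES1 was 8.22-fold lower, and 0.599% of genes were as low or lower in that line by this measure. In MHHES1 it was 4.66-fold lower, with 0.762% of genes as low or lower. These are descriptions of single lines, which have no replicate lines of their own.

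**Figure D1:**
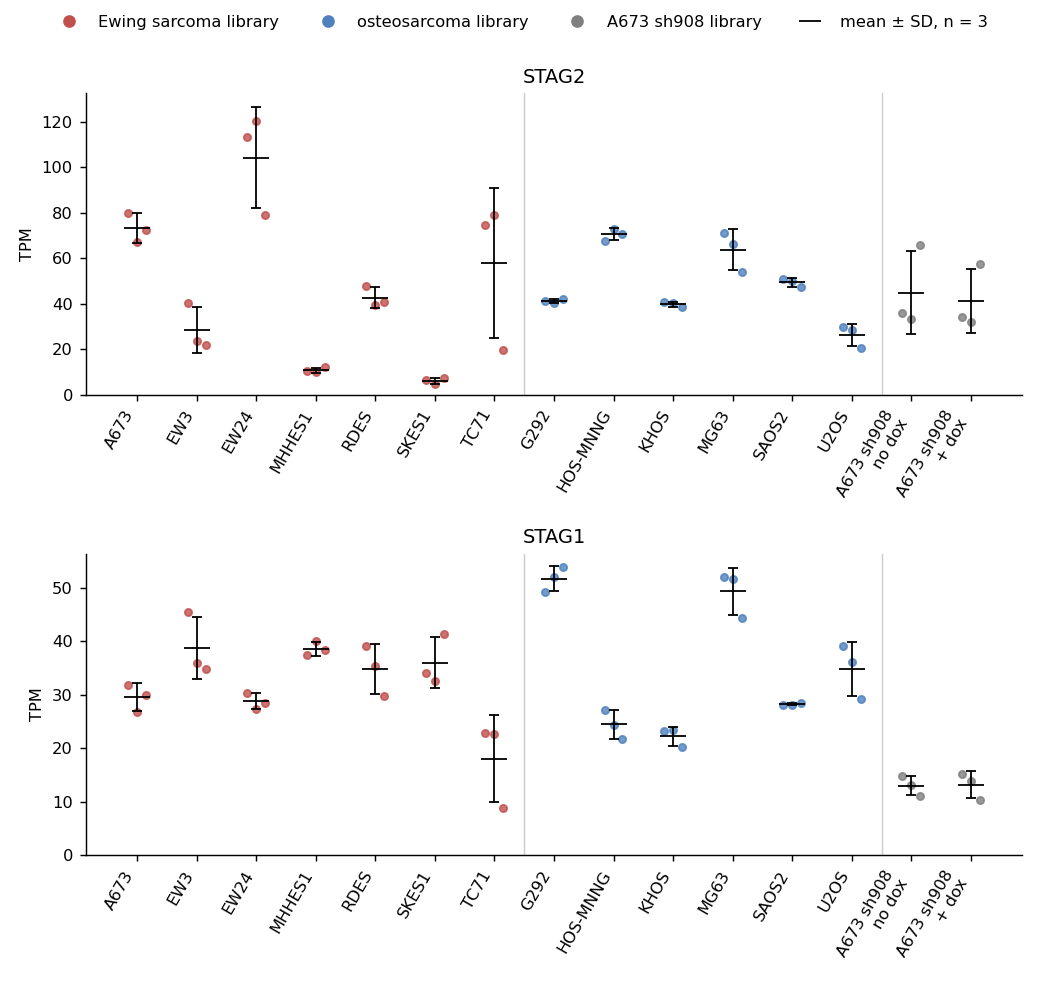
STAG2 (top) and STAG1 (bottom) in TPM by line or group; points are libraries, horizontal bars are means with SD (n = 3). STAG2 in SKES1 (6.12 TPM) and MHHES1 (10.8 TPM) lies below all other lines. STAG1 in the same lines (35.9 and 38.6 TPM) lies within the range of the others, though high among the Ewing lines.

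STAG1, which can take the place of STAG2 in the ring, varied less. Its line means ran from 18.1 ± 8.07 TPM in TC71 (22.7 without replicate 3) and 22.2 ± 1.76 in KHOS to 51.7 ± 2.35 in G292 and 49.3 ± 4.41 in MG63. In SKES1 its 3 libraries had 34, 32.5 and 41.4 TPM, and in MHHES1 37.5, 40.03 and 38.3 TPM. In the order of the 13 means, only SAOS2 (28.2 ± 0.23) and HOS-MNNG (24.4 ± 2.71) were neighbours whose libraries did not overlap. STAG1 in the lines lowest in STAG2 thus stood among the levels of EW3 (38.7 ± 5.78), U2OS (34.8 ± 5.06) and RDES (34.8 ± 4.67). Of these, EW3 and U2OS were themselves next lowest in STAG2. Among the Ewing lines EW3, MHHES1 and SKES1 had the highest STAG1 means and the lowest STAG2 means. Their STAG1 libraries overlapped those of RDES.

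Read together, the order of the paralogues differed between lines. STAG2 made up 14.5% ± 1.47 of the summed STAG1 and STAG2 level in SKES1 and 21.8% ± 2.05 in MHHES1. It made up 41.7% ± 4.67 in EW3, 43% ± 1.34 in U2OS and 44.4% ± 1.09 in G292, and more than STAG1 in the other 8 lines, up to 78.0% ± 4.05 in EW24. STAG2 was thus the lower of the pair in 3 of 7 Ewing and 2 of 6 osteosarcoma lines. The summed level was lowest in SKES1 (42.1 ± 5.84 TPM) and MHHES1 (49.4 ± 1.44 TPM) and highest in EW24 (133 ± 22.2 TPM). Relative to SMC3, which every ring holds, the sum was 0.52 ± 0.01 in SKES1, 0.65 ± 0.04 in MHHES1, 0.68 ± 0.02 in RDES and 0.73 ± 0.17 in EW3, on the TPM scale. It was highest in MG63 (1.75 ± 0.04) and EW24 (1.74 ± 0.19). TC71 replicate 3, the library that stood apart, had 0.47. The libraries of RDES and EW3 overlapped those of MHHES1 in this ratio, so that it did not set MHHES1 apart from lines with more STAG2.

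Across the 13 line means, log2(TPM + 1) of STAG2 and of STAG1 had Pearson r = -0.31 and Spearman rho = -0.40. Among the 7 Ewing lines r was -0.56 and rho -0.75, and r was -0.45 over the 5 lines left without SKES1 and MHHES1. Among the 6 osteosarcoma lines r was -0.04, and 0.43 over the 4 lines left without U2OS and HOS-MNNG. These correlations describe a few lines that share library preparation.

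The mean log2 ratio of STAG2 to STAG1, taken from the mean TPM of each line, was 0.04 ± 1.74 (SD, n = 7) in Ewing and 0.47 ± 0.75 (SD, n = 6) in osteosarcoma lines. With the log2 ratios of a line's libraries averaged instead, the Ewing value was 0.02 ± 1.72 and the osteosarcoma value 0.47 ± 0.75. The difference was -0.43 (2-sided exact permutation test over 1716 splits, p = 0.583), and it was smaller than the SD between Ewing lines. It ran from -0.73 without EW24 to 0.01 without SKES1.

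At the transcript level STAG2 was spread over 25 RefSeq models. The model with the highest mean level, NM_006603.5, held 23.9% of the STAG2 level over the 13 lines. It had 0.18 ± 0.26 TPM in SKES1, 1.46 ± 0.83 in MHHES1 and 33.5 ± 13.8 in EW24. Another model, NM_001375373.1, had 1.14 ± 0.49 TPM in SKES1, 2.01 ± 0.22 in MHHES1 and 13.4 ± 1.88 in EW24. Both were low in the lines whose STAG2 sum was low. The model ranked next, NM_001375377.1, was also low there, with 0.83 ± 0.75 TPM in SKES1 and 1.54 ± 2.13 in MHHES1. It was low too in EW24, the line highest in the sum, with 1.44 ± 1.29 TPM, and had means of 3.75 to 10.9 TPM in the other 10 lines. These models overlap over most of their length, so the division of reads among them is an estimate. STAG1 had 8 models, of which NM_005862.3 held 75.7% of its level.

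Between the tumour types, 1 of the 9 cohesin genes was called at a false discovery rate (FDR) under 0.05, in edgeR's quasi-likelihood test on 13 line sums with Benjamini-Hochberg adjustment, against 14.4% of the 22000 genes tested. PDS5B was higher in Ewing lines. The median log2 fold change of the 9 genes was -0.12, against -0.06 for all genes tested, with 4 above 0 and 5 below. No gene of the 9 had line means that were fully apart between the tumour types, against 4.29% of 14063 genes with a mean of at least 1 TPM in both.

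PDS5B, a partner of WAPL in cohesin release that also guards cohesion, had 39.8 ± 22.1 TPM (SD, n = 7) in Ewing and 17.3 ± 5.36 TPM (SD, n = 6) in osteosarcoma lines. RDES was highest, with 79.3, 77.5 and 64.1 TPM, followed by SKES1 (57.9 ± 7.11), EW3 (52.4 ± 4.10) and EW24 (38 ± 5.96). TC71 (20.3 ± 8.39), MHHES1 (19 ± 1.93) and A673 (17.6 ± 2.02) lay lower. The last 3 overlapped the osteosarcoma lines, whose highest mean was 27.2 ± 0.49 TPM in SAOS2 and whose lowest was 10.8 ± 0.72 TPM in KHOS. Thus 4 of the 7 Ewing lines had means above those of all 6 osteosarcoma lines.

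The log2 fold change of PDS5B, Ewing minus osteosarcoma, was 1.06 (SE 0.31, edgeR FDR = 0.0389). The call was lost when HOS-MNNG and KHOS were counted as 1 line (1.04, FDR = 0.0652) and when any of 9 lines was left out (G292, HOS-MNNG, KHOS, MG63, U2OS, EW3, EW24, RDES or SKES1, FDR 0.0593 to 0.0779). Over all 13 lines left out in turn the fold change was between 0.92 and 1.20. PDS5B was also called by DESeq2 (1.05, adjusted p = 0.00544), which called 24.6% of genes.

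RAD21, the kleisin that closes the ring, was the gene with the highest levels of the 9. MG63 had 1111, 1097 and 930 TPM and G292 had 812, 908 and 935 TPM. SAOS2 followed with 473 ± 26.2 TPM, while KHOS (185 ± 11.4) and A673 (157 ± 10.8) were lowest. The libraries of MG63 and G292 were above those of all other lines. Its mean was 297 ± 88.1 TPM in Ewing and 524 ± 358 TPM in osteosarcoma lines, a log2 fold change of -0.93 (SE 0.38) that did not pass the edgeR test (FDR = 0.117). It was -0.59 (FDR = 0.278) without MG63 and -1.08 (FDR = 0.0754) without KHOS, and DESeq2 gave -0.94 (adjusted p = 0.05002).

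**Figure D2:**
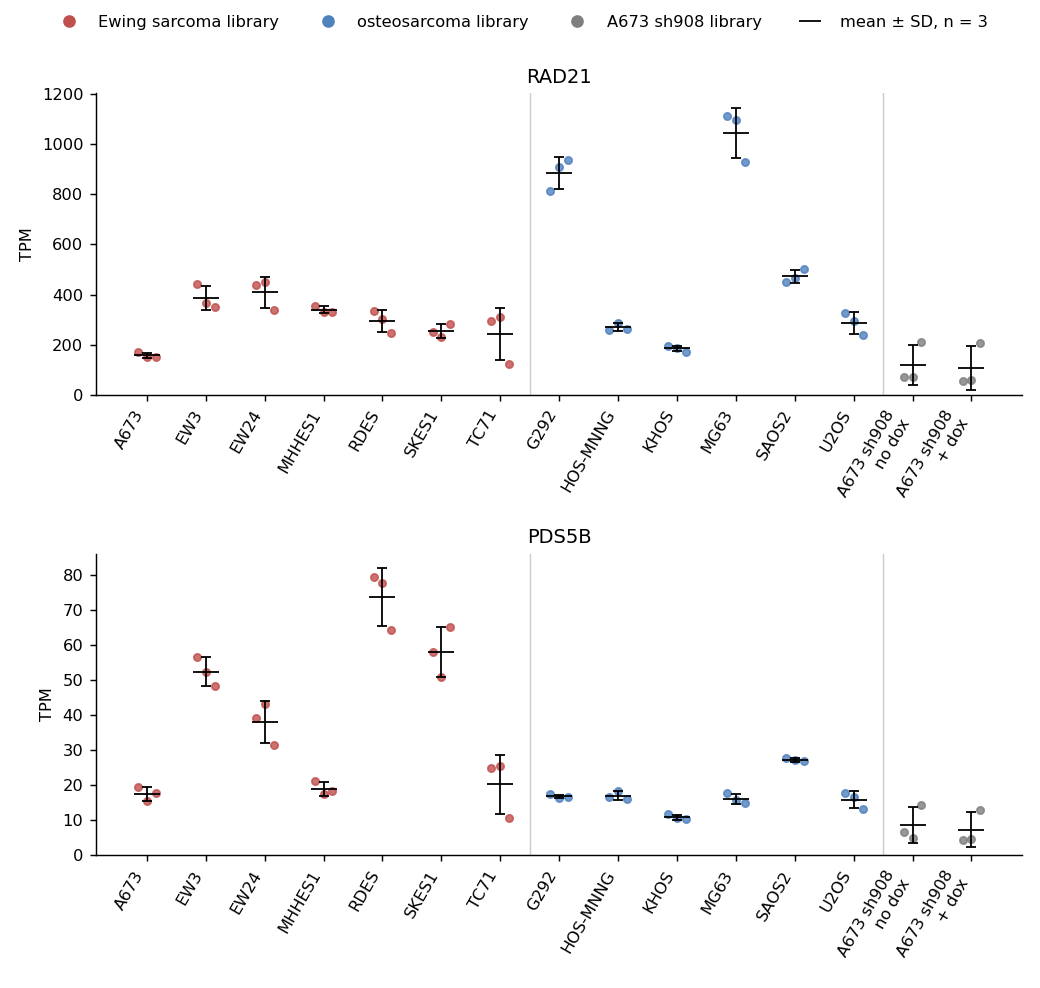
RAD21 (top) and PDS5B (bottom) in TPM by line or group; points are libraries, horizontal bars are means with SD (n = 3). RAD21 in MG63 (1046 TPM) and G292 (885 TPM) lies above all other lines, and PDS5B is highest in RDES (73.6 TPM).

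The other ring subunits and regulators were not called between the tumour types. SMC1A, one arm of the ring, had 65.9 ± 19.9 TPM in Ewing and 50.2 ± 18.9 TPM in osteosarcoma lines (log2 fold change 0.32, SE 0.25, edgeR FDR = 0.421). SMC3, the other arm, had 91.4 ± 15.7 and 75 ± 15.4 TPM (0.19, SE 0.19, edgeR FDR = 0.549). The spread of SMC3 over all 13 lines, with a SD of 0.29 on the log2 scale, was at percentile 2.73 of 11687 genes, and that of WAPL, at 0.26, at percentile 1.27. These were the steadiest of the 9 genes across lines.

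NIPBL, the loader, had 24.3 ± 6.32 TPM in Ewing and 20.3 ± 5.86 TPM in osteosarcoma lines (log2 fold change 0.18, SE 0.18, edgeR FDR = 0.54). WAPL, the release factor, had 30.8 ± 4.72 and 33.7 ± 7.76 TPM (-0.24, SE 0.18, edgeR FDR = 0.419). PDS5A, the paralogue of PDS5B, had 76 ± 11 and 79.7 ± 22.9 TPM (-0.17, SE 0.21, edgeR FDR = 0.634). STAG1 had 32.1 ± 7.33 and 35.1 ± 12.7 TPM (-0.26, SE 0.22, edgeR FDR = 0.463). STAG2 had 46.2 ± 35.2 and 48.6 ± 16.4 TPM (-0.12, SE 0.58, edgeR FDR = 0.917), and its sign turned when HOS-MNNG, MHHES1 or SKES1 was left out (0.05 to 0.08). On the TPM scale the difference in SMC3 was larger than the SD between lines in both tumour types, and those in the other genes of this group were not.

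Some lines stood at one end of their tumour type for several genes. KHOS was below all other osteosarcoma lines in 6 of the 9 genes, and in 22.7% of 11687 genes with a mean of at least 5 TPM. RDES was above all other Ewing lines in 5 of the 9 genes, and in 22.3% of those 11687. Several of these were close to the typical gene of the line: 37.9% of genes were as low as SMC3 in KHOS relative to the other lines, and 46.9% were as high as WAPL in RDES. Others were farther out: 7.50% of genes were as low as RAD21 in KHOS, and 4.77% were as high as PDS5B in RDES. Nothing particular to the cohesin genes is read from these counts.

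**Figure D3:**
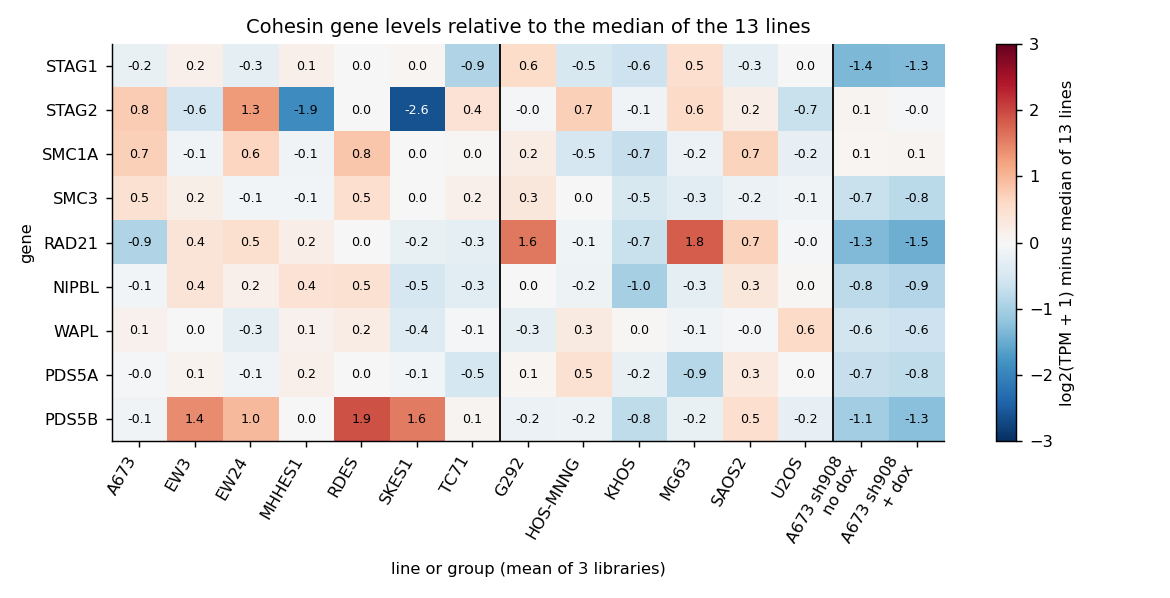
Line or group mean of log2(TPM + 1) for the 9 cohesin genes, minus the median of the 13 lines; colours and printed values are the same differences, and vertical lines part Ewing lines, osteosarcoma lines and A673 sh908 groups. STAG2 in SKES1 and MHHES1 holds the lowest values and PDS5B in RDES and RAD21 in MG63 the highest.

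**Figure D4:**
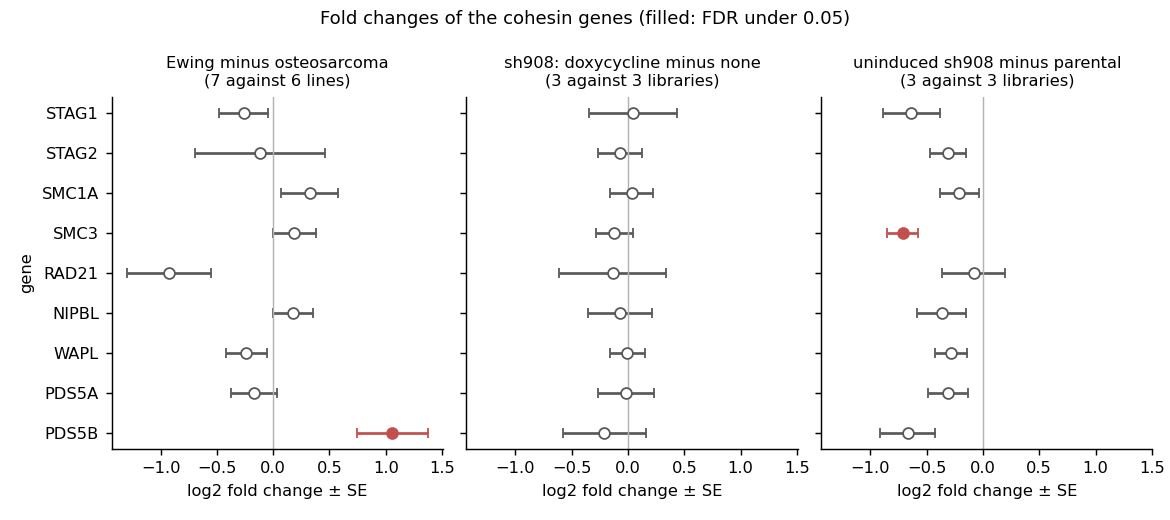
Log2 fold change with SE of the 9 cohesin genes in the 3 comparisons (edgeR); filled points passed an FDR of 0.05. PDS5B passed between the tumour types (1.06) and SMC3 between uninduced sh908 and parental A673 cells (-0.71).

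The other genes of the pathway were read from lists. Of 20 genes of cohesin loading, acetylation and release, 1 was called higher and 0 lower between the tumour types: TIMELESS, a replication fork protein (log2 fold change 0.51, SE 0.15, edgeR FDR = 0.0427). Of 8 loop boundary partners, MAZ, a zinc finger factor, was called higher (0.72, SE 0.20, FDR = 0.0307). CTCF, the protein at which cohesin loops are anchored, was not called (0.40, SE 0.20, FDR = 0.215). Of 14 genes of the related condensin and SMC5/6 complexes, NCAPD3, a condensin II subunit, was called higher (0.86, SE 0.27, FDR = 0.0466) and NCAPD2, its condensin I counterpart, lower (-0.69, SE 0.16, FDR = 0.0139). These counts of 1 in 20, 1 in 8 and 2 in 14 stand beside the 14.4% of all genes called.

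Of 8 proliferation genes 1 was called, against 14.4% of all genes tested. It was MCM6, a subunit of the replicative helicase (0.84, SE 0.23, edgeR FDR = 0.0253). The summed level of the 8 was 1517 to 2074 TPM in Ewing and 1012 to 1780 TPM in osteosarcoma lines, and its part in the cohesin gene levels was not tested.

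The remaining cofactors were not called between the tumour types. MAU2, which loads cohesin with NIPBL, had a log2 fold change of 0.28 (SE 0.32) and its line means ran from 8.48 TPM in U2OS to 39.7 TPM in MG63. The acetyltransferases ESCO1 and ESCO2, which lock cohesion, had -0.09 (SE 0.23) and 0.27 (SE 0.27). CDCA5, the sororin gene that counters WAPL, had 0.29 (SE 0.23), and HDAC8, the SMC3 deacetylase, had -0.13 (SE 0.28). ESPL1, the separase gene, had 0.71 (SE 0.24, edgeR FDR = 0.0649), with 57 ± 4.14 TPM in MHHES1 and 55.1 ± 2.67 TPM in SKES1 against 16 ± 1.49 TPM in KHOS.

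The 4 germline cohesin genes, which replace mitotic subunits in meiosis, had separate patterns over the lines. REC8, the meiotic kleisin, had 89 ± 14 TPM in SKES1, 37 ± 8.75 TPM in EW3 and 26.8 ± 3.61 TPM in RDES. It was at most 10.6 TPM in the other 10 lines. Its log2 fold change between the tumour types was 2.72 (SE 1.03) and did not pass (edgeR FDR = 0.0966). SMC1B, the meiotic partner of SMC3, had 18.3 ± 5.27 TPM in TC71 and 2.84 ± 0.22 TPM in KHOS, and at most 0.596 TPM elsewhere. STAG3 was highest in TC71 with 6.32 ± 1.02 TPM. RAD21L1 was under 1 TPM in all 13 line means. SKES1, the line with the lowest STAG2, was the one with the highest REC8. MHHES1, the line next lowest in STAG2, was among the 10 lines with at most 10.6 TPM of REC8.

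Genes whose line means followed STAG2 most closely were ranked by Pearson correlation of log2(TPM + 1) over the 13 lines, among 11276 genes. They were SNORD86 (r = 0.83, rho = 0.74), SMIM11 (0.82, 0.79), PPP2R5A (0.79, 0.53), IDH3A (0.78, 0.73) and UCHL3 (0.77, 0.64). Without the 2 lines farthest from the STAG2 median these r values were 0.53, 0.60, -0.01, 0.65 and 0.42, so that PPP2R5A rested on those lines. For STAG1 they were C1R (r = 0.93, rho = 0.90), ARRDC3 (0.91, 0.93), COPS7A (0.88, 0.85), ATN1 (0.88, 0.86) and ERC1 (0.87, 0.75), and 4 of these 5 lie on chromosome 12, whereas STAG1 is on chromosome 3. Without the 2 lines farthest from the STAG1 median the r values of these 5 genes were 0.91, 0.94, 0.81, 0.74 and 0.74. Of the cohesin genes RAD21 followed STAG1 most closely (r = 0.70, rho = 0.60). G292 and MG63 had the highest means of both RAD21 and STAG1, and r without them was not computed.

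No cohesin gene was called on induction of the KCNN1 hairpin. KCNN1 itself was at 26.9% to 43.1% of its uninduced level in the 3 same-numbered pairs. Of the 9 cohesin genes 0 were called, against 0% of 14252 genes in edgeR (94 genes had an unadjusted p under 0.05) and 0.512% (73 genes) in the fit with the replicate number as a block, in which again 0 of the 9 were called. DESeq2 called 2 genes (0.014%), with 0 of the 9 among them. The libraries of all 9 overlapped between the groups, and those of 3.29% of 12718 genes did not.

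STAG2 had 35.8, 33.1 and 65.8 TPM in uninduced cells, and after doxycycline 34, 32.1 and 57.6 TPM (log2 fold change -0.07, SE 0.19). STAG1 had 14.7, 13 and 11.2 TPM in uninduced cells, and after doxycycline 15.2, 13.9 and 10.4 TPM (0.05, SE 0.39). In both groups replicate 3 was highest in STAG2 and lowest in STAG1. The remaining 7 genes had log2 fold changes between -0.21 (PDS5B, SE 0.37) and 0.03 (SMC1A, SE 0.19). These SEs are from the fit without the replicate block. In TPM, STAG2, SMC3, RAD21 and PDS5B were lower with doxycycline in all 3 same-numbered pairs. The other cohesin genes differed in direction between pairs. The log2 ratio of STAG2 to STAG1 was 1.73 ± 0.72 without and 1.61 ± 0.74 with doxycycline (n = 3 each, 2-sided exact permutation test over 20 splits, p = 0.5, smallest possible 0.1). Those SDs hold the offset of replicate 3. Within the same-numbered pairs the ratio went from 1.28 to 1.16, from 1.34 to 1.21 and from 2.56 to 2.47, lower with doxycycline in 3 of 3 pairs. A 2-sided exact permutation test of the signs of the 3 pairs gave p = 0.25, the smallest it can give, so that this design cannot pass 0.05.

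RAD21 had 72.2, 71.6 and 209.6 TPM in uninduced cells, and after doxycycline 54.6, 57.7 and 206.3 TPM. Replicate 3 was at 291.6% of the mean of the other libraries in the uninduced and at 367% in the induced group. In the block fit its log2 fold change was -0.21 (SE 0.10, edgeR FDR = 0.418). PDS5B had -0.24 (SE 0.11, FDR = 0.396) in that fit, the smallest FDR of the 9.

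Uninduced sh908 cells were set against parental A673 cells to read the hairpin line without induction. The hairpin line and whatever else separates the libraries cannot be told apart here. All 9 cohesin genes had a log2 fold change below 0, with a median of -0.31 against 0.01 for all genes tested, and 1 of 9 was called, against 15.1% of 15778 genes. Of the 3549 genes tested with an effective length of 5000 nt or more, 68.9% were below 0, with a median of -0.31. Every cohesin gene but RAD21 had a mean effective length above 5000 nt. SMC3 was lower, with 41.9, 42.9 and 66.2 TPM against 122, 101 and 108 TPM in parental cells (log2 fold change -0.71, SE 0.14, edgeR FDR = 0.0223). The call was lost with the replicate block (-0.71, FDR = 0.0848), which called 2.02% of genes, and when any library but uninduced replicate 3 was left out (FDR 0.0681 to 0.134).

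STAG1 had 14.7, 13 and 11.2 TPM against 31.9, 26.8 and 29.9 TPM in parental cells (log2 fold change -0.64, SE 0.25, edgeR FDR = 0.135). STAG2 had 35.8, 33.1 and 65.8 TPM against 80.1, 67.1 and 72.6 TPM (-0.31, SE 0.16, FDR = 0.213). The TPM levels of both were lower in every uninduced library than in every parental one. So were those of SMC1A, SMC3, WAPL and PDS5B, making 6 of the 9, while 37.9% of 12652 genes were lower in that way. On the TPM scale the median log2 ratio of all those genes was -0.36, and relative to it STAG1 was at -0.82 and STAG2 at -0.35.

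RAD21, NIPBL and PDS5A overlapped between uninduced and parental libraries, each through uninduced replicate 3. Without that library RAD21 had a mean of 71.9 TPM, NIPBL 8.71 TPM and PDS5A 35.6 TPM, and with it 118, 12.5 and 48.8 TPM. Without it 7 of the 9 cohesin genes were called, all lower, but so were 62.3% of 16379 genes in either direction. DESeq2 called SMC3 (adjusted p = 4.69e-08) and PDS5B (0.0458), with 26.4% of genes called. In this comparison genes with an effective length of 5000 nt or more had a median log2 fold change of -0.31 and genes under 2000 nt of 0.31. The mean effective lengths of the 9 cohesin genes ran from 3491 to 9585 nt, and the part of length in their values was not tested.

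**Figure D5:**
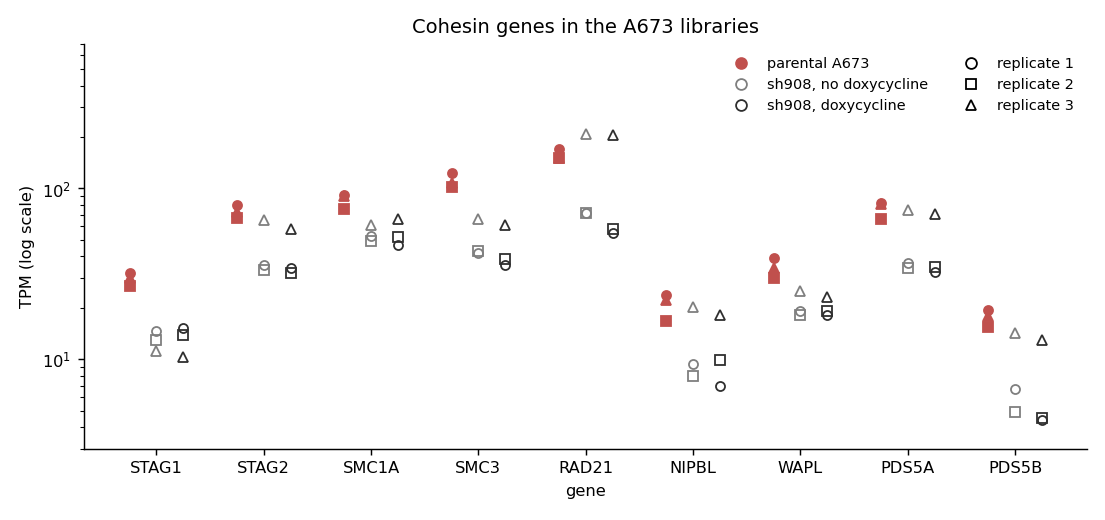
The 9 cohesin genes in the 9 A673 libraries, in TPM on a log axis; colour marks the group and symbol the replicate number. Replicate 3 of both sh908 groups lies apart from replicates 1 and 2, most in RAD21 (209.6 TPM against 72.2 and 71.6 TPM without doxycycline).

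Among the other lists in this comparison, ESCO2 (-0.78, SE 0.13, edgeR FDR = 0.0149) and DDX11, a helicase of cohesion (-0.68, SE 0.14, FDR = 0.0253), were called lower. PTTG1, the securin gene (0.99, SE 0.16, FDR = 0.0149), and AURKB, a mitotic kinase gene (0.65, SE 0.13, FDR = 0.0242), were called higher, giving 2 lower and 2 higher of 20. MED12, a Mediator kinase module subunit, was called higher among the 8 loop boundary partners (1.06, SE 0.14, FDR = 0.00981). Of the 14 condensin and SMC5/6 genes 5 were called lower (SMC2, SMC4, NCAPG2, SMC5 and SMC6, -0.84 to -0.69) and 1 higher (NSMCE1, 1.64, FDR = 0.00613). These counts of 4 in 20, 1 in 8 and 6 in 14 stand beside the 15.1% of all genes called. With the replicate block MED12 and NSMCE1 kept their calls and the other named genes of these 3 lists did not.

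Markers of other cell types were under 1 TPM in these A673 cells, except DES. DES, a muscle filament gene, was called higher in uninduced cells (4.94, SE 1.05, edgeR FDR = 0.0282), at 0.54 to 5.94 TPM against 0.03 to 0.14 TPM in parental libraries. PECAM1, an endothelial gene, was called lower (-1.76, SE 0.43, FDR = 0.039), at 0.05 against 0.20 TPM, and ALB was listed at 0 in both groups. The other 3 of the 6 had means under 0.2 TPM in both. The 6 summed to 0.54 TPM in parental and 2.71 TPM in uninduced cells. Of 8 proliferation genes CCNB1, a mitotic cyclin gene, was called higher (0.53, SE 0.14, FDR = 0.0489) and 0 lower, and the 8 summed to 2074 TPM in parental and 1500.2 TPM in uninduced cells. The median edgeR log2 fold change of the 8 was 0.16. The sums were on the TPM scale, on which the median log2 ratio of 12652 genes was -0.36. These counts of 2 in 6 markers, of which 2 passed the filter on low counts, and 1 in 8 proliferation genes also stand beside the 15.1% of all genes called. With the replicate block DES kept its call (FDR = 0.0437), while PECAM1 (FDR = 0.129) and CCNB1 (FDR = 0.14) did not. The part of these genes in the cohesin values was not tested.

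The germline subunits stayed low in A673 cells, with REC8 at 1.27 TPM in parental, 0.68 in uninduced and 0.77 TPM in induced cells. The log2 ratio of STAG2 to STAG1 was 1.31 ± 0.03 in parental and 1.73 ± 0.72 in uninduced cells (n = 3 each, 2-sided exact permutation test over 20 splits, p = 0.4), and the difference was 0.00 without uninduced replicate 3.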

How the data were processed

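Poly(A) RNA of 13 tumour cell lines and 2 A673 sh908 groups was measured in 45 libraries, prepared with a stranded mRNA kit per the labels' protocols. The submitters' processing notes name fastp 0.19.5, kallisto 0.46.2 and the builds hg38 and GRCh38.p14, without options or order. The authors deposited estimated counts and TPM per RefSeq transcript with its effective length, per the file headers. Of 177816 transcripts 169966 (95.6%) were joined to a gene symbol through a RefSeq gene table of GRCh38.p14, ignoring versions. The unjoined held 0.915% to 1.60% of counts per library and were left out. Counts and TPM were summed per symbol.

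Estimated counts were rounded and tested with edgeR 4.0.16 in R 4.3.3 (quasi-likelihood, robust, filterByExpr, TMM, Benjamini-Hochberg, called at FDR under 0.05). For the tumour types the counts of a line's 3 libraries were summed, so the 13 lines were the replicates. SE is the fold change divided by the square root of F. Alternatives were DESeq2 1.42.0, its size factors, no filter, an effective-length offset, HOS derivatives merged, line as a random effect (limma 3.58.1), the replicate block and each line or library left out. TC71 without replicate 3 was added after seeing the data. Tests were checked on simulated data.

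Same-numbered sh908 libraries with and without doxycycline deviated together (correlations 0.68, 0.58 and 0.88 over 14252 genes), so the numbers were taken to pair them, although replicate 1 and 2 also correlated across numbers (0.61 and 0.52) and replicate 3 stood apart. The members and lists were chosen with earlier results of these data known. Named genes were all 9 members, up to 6 called genes of each list by size, 4 germline subunits, 7 cofactors and the 5 genes most like STAG1 or STAG2.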

Additional observations from a re-analysis of the deposited data

Results flagged for a closer look

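In TC71, STAG1 was at 4.25 on the log2(TPM + 1) scale (18.1 TPM), far below the other 6 Ewing lines, with the gap to the nearest line making up 0.61 of the range of the 7. PDS5A in TC71 was at 5.79 (54.5 TPM), with a gap of 0.60 of the range. Of 20 groups of values tested in this way 2 were far from the others, and chance alone gives about 1 in 20. Both means include TC71 replicate 3, in which STAG1 was at 38.5% and PDS5A at 39.99% of the mean of the other 2 libraries. Without it STAG1 was at 22.7 TPM and PDS5A at 68.2 TPM.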

How the results depend on the processing

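Of 216 recomputed fold changes of the 9 genes between the tumour types, 203 kept direction and side of the threshold, 10 lost a call (all PDS5B) and 3 reversed (all STAG2, 0.0528 to 0.0816, without HOS-MNNG, MHHES1 or SKES1). The counts of genes called between the tumour types were 2296 to 3177 with 1 line or replicate left out and 5404 with DESeq2. The cohesin count was 0 to 1 when lines were left out and 0 with HOS derivatives as 1 line. With a line or replicate left out, STAG2 ran from -0.458 to 0.0816, STAG1 from -0.342 to -0.117, RAD21 from -1.08 to -0.590, SMC1A from 0.199 to 0.468, SMC3 from 0.0896 to 0.288, NIPBL from 0.0836 to 0.258, WAPL from -0.310 to -0.170 and PDS5A from -0.287 to -0.00198. With a line left out, the STAG2 to STAG1 log2 ratio ran from -0.730 to 0.00572. Under the other alternatives STAG2 ran from -0.576 (line as a random effect) to -0.0329 and the ratio from -0.562 to -0.296. Line as a random effect with the replicate block called 3911 genes and 1 of the 9. Under doxycycline 30 of 126 values reversed. WAPL was 0.0153 with RLE size factors, 0.0152 with DESeq2 and 0.00539 without a filter, and PDS5A 0.000322 and 0.000298 with the first 2 of these. With a library left out the ranges were -0.207 to 0.335 for STAG1, -0.166 to 0.0556 for STAG2, -0.0658 to 0.114 for SMC1A, -0.737 to 0.263 for RAD21, -0.295 to 0.174 for NIPBL, -0.0531 to 0.0626 for WAPL, -0.233 to 0.165 for PDS5A, -0.629 to 0.0780 for PDS5B and -0.543 to 0.302 for the ratio, and genes called ran from 0 to 167. With the replicate block and a library number left out, STAG1 was -0.0396 and -0.00398, NIPBL 0.0506, PDS5A 0.00512, SMC1A -0.0357 and WAPL 0.0131, and SMC1A without uninduced replicate 1 was 0.113.

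The replicate block called 73 genes under doxycycline, where DESeq2 called 2. Between uninduced and parental cells, the block called 319 genes and 0 of the 9, and DESeq2 4169 and 2. Same-numbered libraries there had correlations of 0.05, 0.09 and 0.25, against -0.21 to 0.16 across numbers. Whether the numbers pair those libraries is not known. With a library left out, genes called ran from 2 to 10202, the cohesin count from 0 to 7, STAG1 from -0.867 to -0.367, STAG2 from -0.434 to -0.221, RAD21 from -0.501 to 0.0841 and the ratio from 0.000533 to 0.640. With the block and replicate 1, 2 or 3 left out, it called 205, 345 and 8250 genes, and RAD21 was 0.0602 and 0.0146 without replicates 1 and 2. Without an uninduced library STAG1 ran from -0.823 to -0.379, and without replicate 3 STAG2 was -0.418 and RAD21 -0.459. Of the 126 values 4 reversed (all RAD21), 8 lost a call and 13 gained one. The causes were not tested. The low estimated counts of STAG2 in SKES1 limit the precision of its transcript models.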
